A study of Mus musculus with 6 samples.

Results

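The genes described here build and police the mitotic spindle: cyclins and mitotic kinases, spindle checkpoint proteins, kinetochore and centromere proteins, kinesin motors, spindle and chromosome proteins, and proteins of cytokinesis and the centrosome. They were taken by symbol from a list of 43 mitosis genes, and 42 of them had a probe set of their own among the 22180 genes measured. Ccnb1, which encodes cyclin B1, had none and was not analysed here. Each of the 42 was read by 1 probe set. Transcripts were measured on 6 arrays of FACS-sorted haematopoietic stem cells from C57BL/6J mice, 3 of CCR2-negative and 3 of CCR2-positive cells. CCR2 is the receptor of the chemokine CCL2. Each array held RNA from 1 pool, made from the bone marrow of 20 mice, of which 5 ng was amplified. The design calls the pools biological replicates. The sources used here do not give the age or sex of the mice, any treatment or the other surface markers of the sort.

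As background, the kinase CDK1 bound to cyclin A or B starts mitosis, and Polo-like and Aurora kinases mature the centrosomes and build the spindle. Microtubules attach to chromosomes at kinetochores, and the checkpoint holds back the anaphase-promoting complex until every chromosome is attached. Most of these genes are transcribed late in the cell cycle and are silent in resting cells, so that they are widely used to mark dividing cells. Most haematopoietic stem cells rest, while the progenitors they give rise to divide. Their level in a pool therefore depends on both the number of dividing cells and the RNA per cell, which cannot be told apart in pooled samples.

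Values are log2 signals from RMA, and differences are given as CCR2-positive less CCR2-negative (means of 3 pools), ± its standard error from limma. CCR2-positive replicate 3 stood somewhat apart, with the narrowest spread of signal of the 6 arrays. No mitosis gene had an adjusted limma p under 0.05, and neither did any other gene (0 of 22180, 0.00%). At an unadjusted limma p under 0.05 there were 4 mitosis genes with lower values in CCR2-positive pools, Cep55, Cep68, Ndc80 and Kif18a. That is 9.52% of the 42, beside 6.61% of all genes with that call. No mitosis gene had higher values at that p, beside 5.63% of all genes. These shares depend on the scaling, since 1467 genes were lower and 1249 higher in all, against 1227 and 1463 after a second quantile normalization and 1621 and 1027 after median centring. All CCR2-positive pools lay below all CCR2-negative ones for 4 genes, Cep55, Cep68, Kif18a and Kif4, beside 7.88% of all genes. None had all CCR2-positive pools above, beside 10.8% of all genes. The count of lower calls was thus close to the share in all genes.

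The differences were small for most of the list. Their median was -0.08, and their median size, regardless of sign, was 0.105, beside 0.127 over all genes. The 95% interval included 0 for 38 of the 42 genes and lay within 1 on the log2 scale, a 2-fold change, for 39. The exceptions to the latter were Cep55, Cep68 and Ndc80. Values were lower in CCR2-positive pools for 31 genes and higher for 11, which is 73.8% lower, beside 44.0% of all genes. The mitosis genes had bright probe sets, 37 of the 42 in the top 20% of signal. Cep55, Cep68, Kif18a, Spc25 and Kif20a lay outside that range, at percentiles 60.3, 71.5, 71.6, 76.3 and 79.5 of signal. Of all 4436 genes in the top 20%, 61.6% were lower, with a median of -0.05. The balance moved with the scaling, to 24 lower and 18 higher after a second quantile normalization and to 27 and 15 with cyclic loess, while median centring gave 33 and 9. It was 23 lower and 19 higher without CCR2-negative replicate 2, with a median of -0.023. Leaving out CCR2-positive replicate 3 gave the same counts and a median of -0.0086. It went the other way without CCR2-negative replicate 1 (37 lower, 5 higher, median -0.15) and without CCR2-positive replicate 2 (38 lower, 4 higher, median -0.17).

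**Figure D1:**
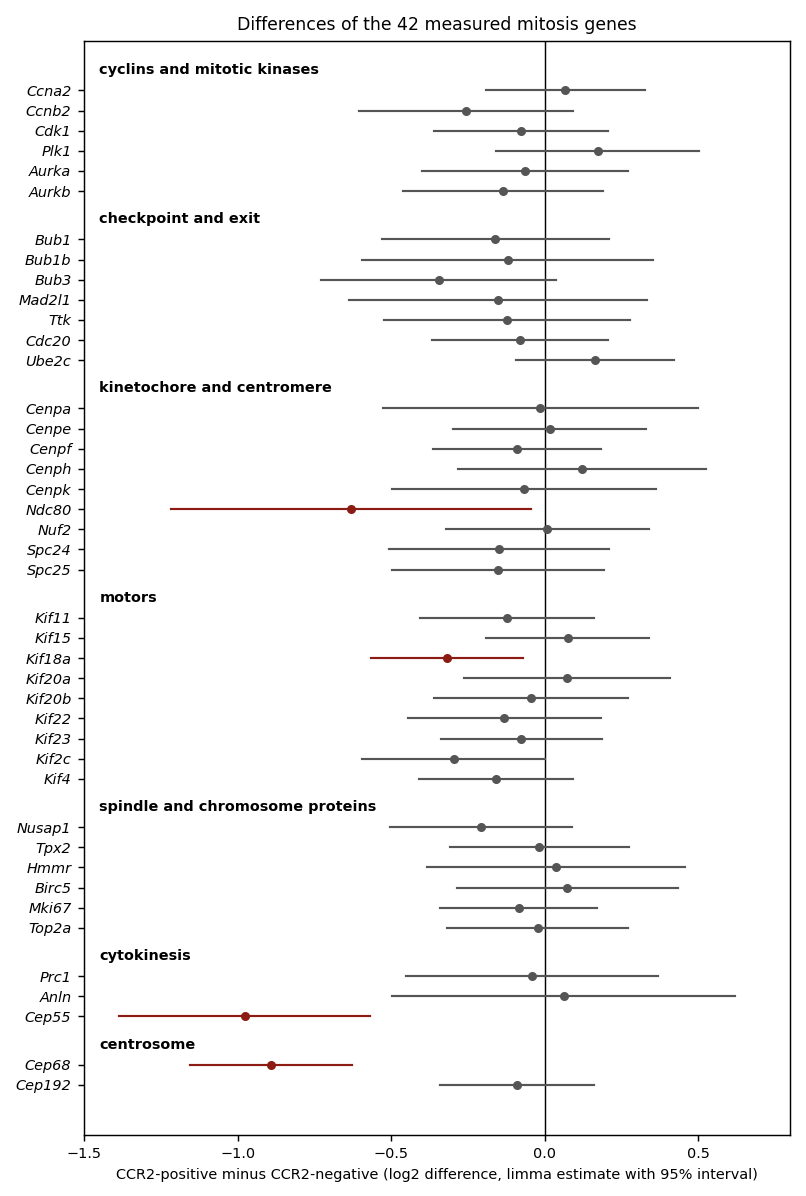
Difference between CCR2-positive and CCR2-negative pools for the 42 genes by role (x axis, log2 difference; points, limma estimates; lines, 95% intervals; 3 pools a group). The 4 genes in red, Ndc80, Kif18a, Cep55 and Cep68, had an unadjusted p under 0.05, and the other intervals include 0.

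What the genes share in sequence was read from RefSeq promoter windows of build GRCm38.p6, 250 bases before to 50 after a start site. The table held 42 windows for 37 of the 43 genes. The CHR element, at which repressor and activator complexes of the cell cycle bind, was searched as TTTGAA on both strands. It was found in 29 of the 42 windows (69.0%), beside 17.9% of all 32851 windows. The CCAAT box, the site of NF-Y, was searched as CCAAT on both strands and was found in 30 of the 42 windows (71.4%), beside 37.4% of all windows. Both motifs were in 22 of them (52.4%), beside 6.95% of all. A match is a run of letters and not a shown binding site. Among measured genes, the 26 with a CHR match in a window had a median difference of -0.08 (21 lower, 5 higher), and the 10 without one had -0.11 (6 lower, 4 higher). The medians of genes with and without the match thus lay close together, and whether these genes differed was not tested.

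The 150 bases before the start site are printed for 6 genes, 5′ to 3′ on the gene's strand, with CHR and CCAAT matches of either strand in capitals. Cdk1, Cdc20 and Ube2c hold both motifs, as did 22 of the 42 windows, and had differences of -0.08, -0.08 and 0.16. Cep55, Cep68 and Kif18a are shown because they had the smallest p-values of the list. The stretches lie at chr10:69352913-69353062 (- strand), chr4:118437344-118437493 (- strand), chr2:164769779-164769928 (+ strand), chr19:38054834-38054983 (+ strand), chr11:20249425-20249574 (- strand) and chr2:109280588-109280737 (+ strand).
Cdk1: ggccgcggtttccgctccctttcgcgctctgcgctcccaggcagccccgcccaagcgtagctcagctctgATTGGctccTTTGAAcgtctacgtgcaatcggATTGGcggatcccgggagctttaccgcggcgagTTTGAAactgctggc
Cdc20: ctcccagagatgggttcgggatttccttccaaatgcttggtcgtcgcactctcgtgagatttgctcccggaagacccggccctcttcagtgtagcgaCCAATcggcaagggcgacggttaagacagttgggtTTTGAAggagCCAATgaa
Ube2c: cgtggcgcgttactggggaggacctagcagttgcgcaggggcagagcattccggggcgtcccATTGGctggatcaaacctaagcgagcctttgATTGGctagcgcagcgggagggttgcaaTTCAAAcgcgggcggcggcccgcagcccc
Cep55: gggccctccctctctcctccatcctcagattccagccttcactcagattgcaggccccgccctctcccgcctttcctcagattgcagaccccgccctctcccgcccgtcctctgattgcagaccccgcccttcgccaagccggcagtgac
Cep68: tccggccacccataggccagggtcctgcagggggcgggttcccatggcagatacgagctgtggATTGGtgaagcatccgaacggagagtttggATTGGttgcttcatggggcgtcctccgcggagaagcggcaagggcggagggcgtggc
Kif18a: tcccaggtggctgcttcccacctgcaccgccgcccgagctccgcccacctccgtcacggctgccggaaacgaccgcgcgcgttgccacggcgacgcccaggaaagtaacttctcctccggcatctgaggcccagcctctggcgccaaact
In Cdk1 the matches nearest the start lie 15 bases before it for CHR and 48 bases for CCAAT. Cdc20 has a CHR match 18 bases and Ube2c 29 bases before the start. Cep68 has 2 CCAAT matches, 57 and 87 bases before the start, and no CHR match in its window. The stretch of Cep55 holds neither, but a CHR match begins at base 25 after this start, which is the farther upstream of its 2 listed starts. Kif18a has neither motif in its whole window.

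Cep55 had the largest difference of the list. It encodes a midbody protein that recruits the machinery cutting the bridge between daughter cells. Its log2 values were 6.83, 6.84 and 6.68 in CCR2-negative replicates 1, 2 and 3, and 5.50, 6.23 and 5.68 in CCR2-positive replicates 1, 2 and 3. All CCR2-positive pools lay below all CCR2-negative pools, and they were more spread, with replicate 2 nearest to the other group. The means were 5.80 ± 0.38 (SD, n = 3) and 6.78 ± 0.09 (SD, n = 3), which is 1.97-fold apart. On the log2 scale this is -0.98 ± 0.18 (95% interval -1.39 to -0.57). Its p-value ranked 51 among all genes, and the adjusted p from limma was 0.177. As each pool was left out the difference ran from -1.19 to -0.83.

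Cep68 belongs to the linker that holds the 2 centrosomes of a cell together until mitosis, when it is degraded. Its values were 7.50, 7.36 and 7.20 in CCR2-negative replicates 1, 2 and 3 and 6.37, 6.56 and 6.46 in the CCR2-positive ones. The groups were far apart and the pools within each lay close. The means were 1.86-fold apart, or -0.89 ± 0.12 on the log2 scale (95% interval -1.16 to -0.63). Its p-value ranked 3 among all genes, and the adjusted p from limma was 0.177. Leaving out pools gave -0.97 to -0.82. Over all alternatives the adjusted limma p ran from 0.139 to 0.474 for Cep68 and from 0.150 to 0.474 for Cep55. In all, 318 genes (1.43%) had an adjusted p under 0.2, and of the mitosis genes only Cep55 and Cep68 did, the next being Kif18a at 0.307.

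Cep192, the other centrosome gene of the list, is a scaffold that recruits Polo-like and Aurora kinases. Its values were 8.21, 8.11 and 8.24 in CCR2-negative and 7.95, 8.21 and 8.13 in CCR2-positive pools, a difference of -0.09 ± 0.11. These pools overlapped. The other members of the cytokinesis group did not share the position of Cep55 either. Anln encodes anillin, a scaffold of the contractile ring, with values of 7.75, 8.13 and 8.10 against 7.83, 8.66 and 7.68. Its difference of 0.06 ± 0.24 was the least precise after that of Ndc80, since CCR2-positive replicate 2 stood above all other pools. Prc1, which bundles the microtubules of the central spindle, differed by -0.04 ± 0.18, a sign that turned under a second quantile normalization and cyclic loess.

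**Figure D2:**
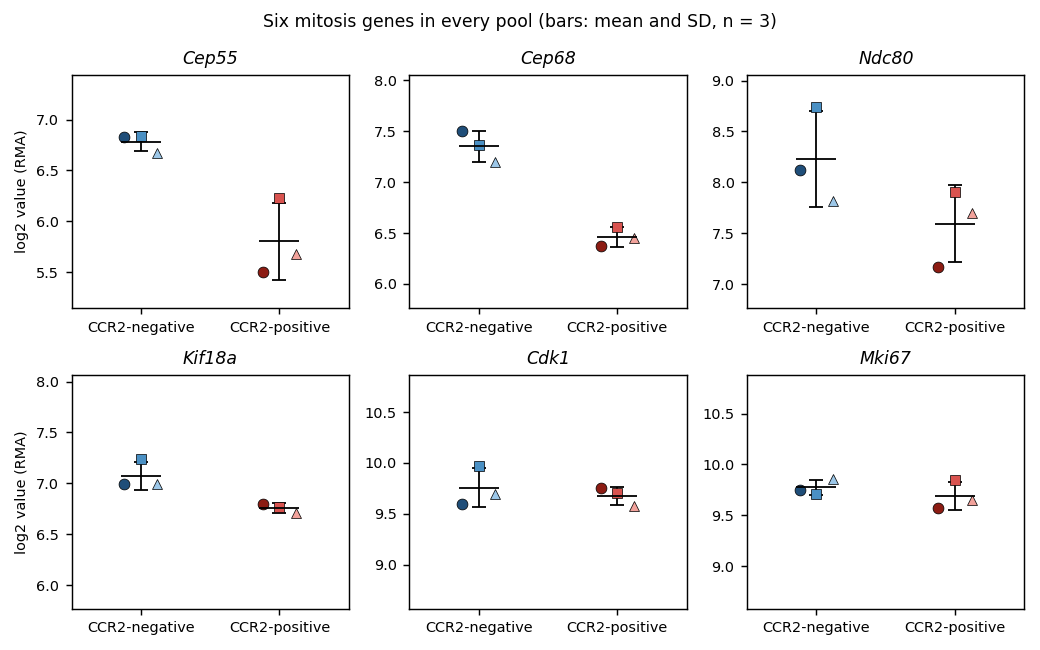
Log2 RMA values of 6 genes in every pool (points; circle, square and triangle are replicates 1, 2 and 3; horizontal bars and whiskers, mean and SD, n = 3), drawn on y axes of equal length. The groups are separate for Cep55, Cep68 and Kif18a and overlap for Ndc80, Cdk1 and Mki67.

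Cyclins and mitotic kinases did not differ beyond the spread of the pools. Cdk1, the kinase that drives entry into mitosis, had 9.60, 9.97 and 9.70 in CCR2-negative replicates 1, 2 and 3 and 9.75, 9.70 and 9.58 in CCR2-positive ones. The pools were interleaved and the difference was -0.08 ± 0.12, with a 95% interval of -0.36 to 0.21. Ccnb2, which encodes cyclin B2, had 9.69, 10.10 and 9.77 against 9.68, 9.76 and 9.35. Here CCR2-negative replicate 2 was the highest pool and CCR2-positive replicate 3 the lowest, and the difference was -0.26 ± 0.15. Plk1, the Polo-like kinase of centrosome maturation, had 8.45, 8.48 and 8.65 against 8.73, 8.94 and 8.42. Replicates 1 and 2 of the CCR2-positive pools were above all CCR2-negative ones and replicate 3 below them, giving 0.17 ± 0.15. Without that replicate the difference was 0.31, with an unadjusted p under 0.05 and an adjusted limma p of 0.421. Ccna2, the gene of cyclin A2, differed by 0.07 ± 0.11. The Aurora kinase genes Aurka, whose product acts at spindle poles, and Aurkb, whose product corrects attachments at centromeres, differed by -0.07 ± 0.15 and -0.14 ± 0.14. In all, 4 of the 6 were lower and 2 higher, and with all pools none had an unadjusted p under 0.05. Their median of -0.07 turned to 0.022 without CCR2-negative replicate 2.

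Of the 7 checkpoint and exit genes 6 were lower, their median was -0.12, and with all pools none had an unadjusted p under 0.05. The direction turned without CCR2-positive replicate 3, when 3 were lower and 4 higher, with a median of 0.0058. With CCR2-positive replicate 2 left out it was at -0.32, and Bub1b (-0.39) and Bub3 (-0.48) had an unadjusted p under 0.05. Bub3, which docks checkpoint proteins at kinetochores, had 8.84, 9.02 and 8.77 in CCR2-negative and 8.64, 8.80 and 8.16 in CCR2-positive pools. Only CCR2-positive replicate 2 reached into the other group, and replicate 3 was far below the rest. The difference was -0.34 ± 0.17 (limma, adjusted p = 0.447). Ube2c, the ubiquitin-conjugating enzyme of the anaphase-promoting complex, had 9.80, 9.83 and 9.73 against 10.01, 10.06 and 9.77. CCR2-positive replicates 1 and 2 were above all CCR2-negative pools, and the difference was 0.16 ± 0.11. Without CCR2-positive replicate 3 it was 0.25, with an unadjusted p under 0.05 and an adjusted limma p of 0.434. The complex's activator Cdc20 differed by -0.08 ± 0.13. The checkpoint kinases Bub1 and Ttk and the checkpoint proteins Bub1b and Mad2l1 differed by -0.16 ± 0.16, -0.12 ± 0.18, -0.12 ± 0.21 and -0.15 ± 0.21. For all 4 genes CCR2-positive replicate 3 was the lowest pool. Bub1b ran from 7.70 to 8.59 within the CCR2-positive pools and from 8.14 to 8.23 within the CCR2-negative ones.

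Of the 9 kinetochore genes 6 were lower, and their median of -0.07 turned to 0.00055 after a second quantile normalization and to 0.031 without CCR2-negative replicate 2. Ndc80 was the one with an unadjusted p under 0.05. It encodes the microtubule-binding subunit of the 4-part NDC80 complex. Its values were 8.12, 8.74 and 7.81 in CCR2-negative and 7.17, 7.91 and 7.70 in CCR2-positive pools. CCR2-positive replicate 2 lay above CCR2-negative replicate 3, so the groups overlapped, and both were widely spread. The means differed by -0.63 ± 0.26, or 1.55-fold, with an adjusted limma p of 0.377. Leaving out CCR2-negative replicate 2 gave -0.37, and leaving out CCR2-positive replicate 1 gave -0.42. In both cases, and likewise without CCR2-negative replicate 1 or without replicate 3 of the CCR2-positive pools (-0.68 each), with a second quantile normalization (-0.55) or with cyclic loess (-0.58), the unadjusted p was no longer under 0.05.

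The other subunits of that complex did not stand where Ndc80 did. Nuf2, its direct partner, had 8.42, 8.83 and 8.54 against 8.40, 8.64 and 8.77, a difference of 0.01 ± 0.15. Spc25 had 7.19, 7.57 and 7.06 against 7.00, 7.28 and 7.08, a difference of -0.15 ± 0.15, and Spc24 differed by -0.15 ± 0.16. The pools of all 3 overlapped, and whether Ndc80 differed from its partners was not tested. Of the centromere genes, Cenpa, the histone H3 variant that marks centromeres, differed by -0.01 ± 0.22. The kinetochore motor Cenpe differed by 0.02 ± 0.14 and the large kinetochore protein Cenpf by -0.09 ± 0.12. Cenph and Cenpk, of the inner kinetochore, differed by 0.12 ± 0.18 and -0.07 ± 0.19. Cenph was at 0.32 without CCR2-negative replicate 2, with an unadjusted p under 0.05. The difference of Cenpa turned to 0.0012 after a second quantile normalization and that of Cenpe to -0.0076 with median centring.

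Of the 9 kinesin motor genes 7 were lower, and their median was -0.12. Kif18a, a motor that damps the movements of attached chromosomes, had 6.99, 7.24 and 7.00 in CCR2-negative and 6.79, 6.77 and 6.71 in CCR2-positive pools. The CCR2-positive values were close together and all below the other group, and the 1.25-fold difference was -0.32 ± 0.11 (95% interval -0.57 to -0.07, limma, adjusted p = 0.307). Without CCR2-negative replicate 2 it was -0.24, and the unadjusted p was no longer under 0.05. Kif2c, which takes microtubules apart at centromeres, had 8.01, 8.19 and 7.80 against 7.83, 7.69 and 7.58, a difference of -0.30 ± 0.13. Here CCR2-positive replicate 1 lay just above CCR2-negative replicate 3, and the 95% interval reached 0. Kif4, a motor on chromosome arms, had 7.65, 7.68 and 7.77 against 7.63, 7.61 and 7.39. The groups barely parted, at 7.63 and 7.65, and the difference was -0.16 ± 0.11. Kif11 and Kif15, which push spindle poles apart, differed by -0.12 ± 0.12 and 0.07 ± 0.12. Kif20a and Kif23, motors of the central spindle, and the related Kif20b differed by 0.07 ± 0.15, -0.08 ± 0.11 and -0.05 ± 0.14. Kif22, another motor on chromosomes, differed by -0.13 ± 0.14.

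Among the 6 spindle and chromosome genes, of which 4 were lower, are the usual markers of dividing cells. Their median of -0.02 turned to 0.0010 after a second quantile normalization, to 0.012 with cyclic loess, and to 0.074 and 0.016 without replicate 3 of the CCR2-positive or of the CCR2-negative pools. Mki67, the gene of the Ki-67 antigen that coats mitotic chromosomes, had 9.75, 9.71 and 9.86 in CCR2-negative and 9.57, 9.84 and 9.65 in CCR2-positive pools. The groups overlapped, with means of 9.77 ± 0.08 (SD, n = 3) and 9.69 ± 0.14 (SD, n = 3). They differed by -0.08 ± 0.11 (95% interval -0.34 to 0.17). Top2a, the topoisomerase that untangles sister chromatids, had 9.70, 9.78 and 10.00 against 9.78, 9.98 and 9.65, a difference of -0.02 ± 0.13. Its pools were interleaved as well. Nusap1, which bundles spindle microtubules, had 8.72, 8.98 and 8.78 against 8.72, 8.74 and 8.40. Its difference was -0.21 ± 0.13, and CCR2-positive replicate 3 was far below the other pools. Tpx2, the activator of Aurora A, the microtubule-binding Hmmr and Birc5, which encodes the passenger complex protein survivin, differed by -0.02 ± 0.13, 0.04 ± 0.18 and 0.07 ± 0.16.

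For most genes the pools differed more within a group than the group means did. The range within the CCR2-positive pools exceeded the group difference for 38 of the 42 genes and that within the CCR2-negative pools for 34. The median ranges were 0.359 and 0.282, beside 0.287 and 0.246 over all genes. These counts were not made over all genes. The median ranges of all genes also exceeded their median difference in size, 0.127, so the counts are not read as particular to the mitosis genes. The genes moved together from pool to pool. CCR2-negative replicate 2 was the highest of the 6 pools for 20 of the genes (47.6%, beside 16.6% of all genes), and CCR2-positive replicate 2 for 16 (38.1%, beside 18.3%). CCR2-positive replicate 3 was the lowest for 21 of the 42 (beside 19.7% of all genes) and lay below the gene's mean over the pools for 41, the exception being Nuf2. CCR2-negative replicate 1 was the lowest for 10 (23.8%, beside 17.9% of all genes) and CCR2-positive replicate 1 for 9 (21.4%, beside 12.2%). CCR2-negative replicates 2 and 3 were the lowest for 0 and 1 (beside 22.9% and 10.8%), and CCR2-positive replicate 2 for 1 (beside 16.5%). The highest pools thus came from both groups, while the lowest pool was most often CCR2-positive replicate 3.

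In CCR2-positive replicate 3 the median position of the 42 genes was -0.22 from the gene's mean. Bright genes in general were low on this array: the median over the 4436 genes in the top 20% of signal was -0.14, and 77.9% of them lay below their mean. The spread of all probe sets was also the narrowest there, with an SD of 1.81 against 1.85 to 1.87 on the other arrays. In CCR2-negative replicate 2 and CCR2-positive replicate 2 the median positions were 0.20 and 0.15, and those of bright genes 0.06 and 0.07. The part of signal range in these positions was not tested. By role, the checkpoint and exit genes lay lowest in CCR2-positive replicate 3, at a median of -0.39, and the kinetochore genes highest in CCR2-negative replicate 2, at 0.33. Cep55 and Cep68 were likewise below their mean in CCR2-positive replicate 3, but their lowest pool was CCR2-positive replicate 1.

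**Figure D3:**
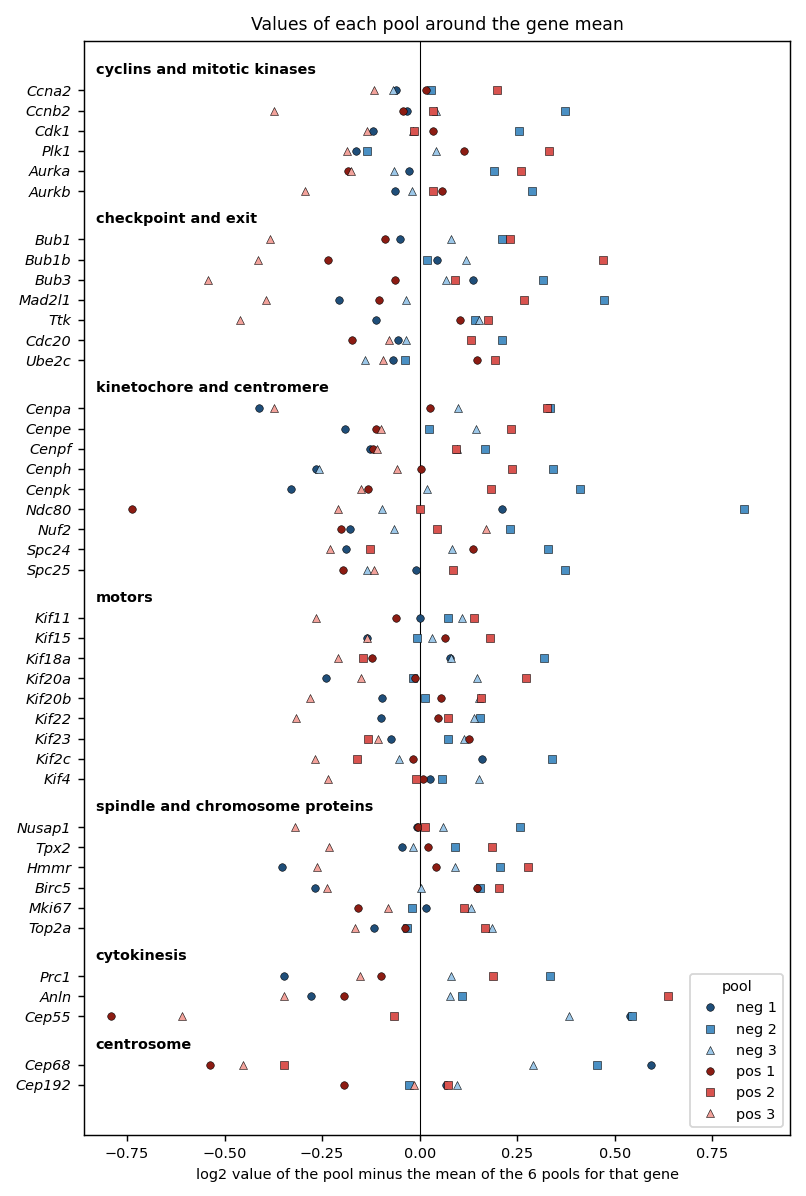
Log2 value of each pool minus the gene's mean over the 6 pools (x axis) for the 42 genes by role (y axis); blue, CCR2-negative; red, CCR2-positive; symbols, replicates. The pale red triangles of CCR2-positive replicate 3 lie left of 0 for 41 genes, and colours separate by group for Cep55, Cep68, Kif18a and Kif4.

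**Figure D4:**
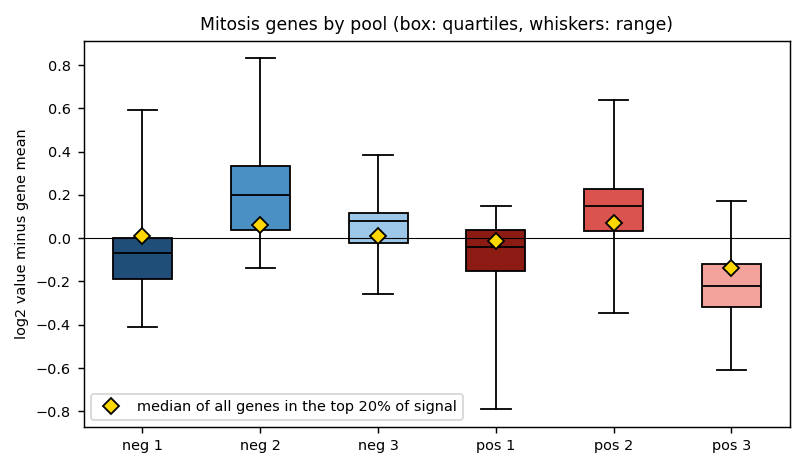
The same deviations summed up by pool (y axis, log2; box, quartiles with the median; whiskers, full range; 42 genes) with the median of all genes in the top 20% of signal (diamonds). The boxes of CCR2-negative and CCR2-positive replicate 2 are high, with medians of 0.20 and 0.15, and that of CCR2-positive replicate 3 is low, at -0.22.

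Further genes of mitosis were counted in the same way. Of 157 measured (168 listed), 101 were lower and 56 higher, with a median of -0.06, and 13 had an unadjusted p under 0.05 with lower values and 2 with higher ones, where 6.61% and 5.63% of all genes did. The balance was 84 lower and 73 higher after a second quantile normalization, where 5 and 6 had such a p. Without CCR2-positive replicate 3 it was 76 and 81, with a median of 0.0070 and 4 lower and 8 higher calls. Without CCR2-positive replicate 2 it was 116 and 41, with a median of -0.12 and 19 lower calls, and without CCR2-negative replicate 1 it was 115 and 42, with a median of -0.09 and 4 lower calls. None had an adjusted p under 0.05. The clearest direction among these lists, singled out after the values were seen, was in the anaphase-promoting complex and its regulators. The complex marks mitotic proteins for destruction. All 16 genes were lower, by a median of -0.09. Of all genes 44.0% were lower, and of those in the top 20% of signal 61.6%, with a median of -0.05. At an unadjusted limma p under 0.05, 2 of the 16 were lower, beside 6.61% of all genes. With a second quantile normalization 14 and with cyclic loess 15 of the 16 were lower, and as each pool was left out 13 to 16 were. The subunits Anapc2 and Anapc4 had the smallest p-values of these 16. Anapc2 had 7.24, 7.20 and 7.29 against 6.74, 7.17 and 6.63 (-0.40 ± 0.15, limma, adjusted p = 0.339). Anapc4 had 7.77, 7.96 and 7.54 against 7.48, 7.50 and 7.26 (-0.34 ± 0.13, limma, adjusted p = 0.364). Both groups of values were separate, by under 0.1.

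Of 25 other kinetochore and centromere genes, 17 were lower, but 10 without CCR2-positive replicate 3. Ska2, of a complex that helps NDC80 hold microtubules, differed by -0.47 ± 0.14, and its partners Ska3 and Ska1 by -0.25 ± 0.14 and 0.03 ± 0.31. Of 26 other spindle, motor and cytokinesis genes, 13 were lower and 13 higher, and 4 of the lower ones had an unadjusted p under 0.05, where 6.61% of all genes did. Among them were the spindle pole protein Numa1 (-0.32 ± 0.11) and Ckap2 (-0.39 ± 0.14). The count of lower calls was 1 after a second quantile normalization, with 1 higher, and 2 with the dim filter, the replicate block or trended variances. Of 40 other centrosome genes, 23 were lower and 17 higher, with a median of -0.04 that turned to 0.016 after a second quantile normalization. Stil, needed to build centrioles, differed by -0.38 ± 0.13 and Cep162 by -0.37 ± 0.14. The lowest value of the list was that of Cep97, -0.384, named here after its value was seen. Cohesin genes and their regulators were lower in 10 of 14 cases, with Pttg1, the gene of securin, at -0.26 ± 0.13. Without CCR2-positive replicate 3 it was 6 of 14. Condensin genes were lower in 4 of 7 cases, and in 3 after a second quantile normalization, and Smc2 differed by 0.17 ± 0.17. Of 16 other checkpoint, kinase and passenger genes 9 were lower, with Haspin, a kinase of histone H3, at -0.38 ± 0.16. Among 13 transcription regulators of mitotic genes, 9 were lower, but 6 after a second quantile normalization or without CCR2-positive replicate 3. E2f4, which represses cell cycle genes in resting cells, differed by 0.36 ± 0.14, and Nfyc, a subunit of the CCAAT-binding factor, by -0.36 ± 0.14.

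Genes of DNA replication, the step before mitosis, are set beside these. Of 22 measured, 15 were higher and 7 lower, which is 31.8% lower, beside 44.0% of all genes. Their median was 0.12, where the mitosis genes had -0.08 and all genes 0.027. At an unadjusted limma p under 0.05, 3 were higher and 0 lower, beside 5.63% and 6.61% of all genes. All CCR2-positive pools lay above for 6 and below for 1, beside 10.8% and 7.88% of all genes. Ccne1, the gene of cyclin E1, had 7.27, 7.50 and 7.42 against 7.70, 7.98 and 7.89, a difference of 0.46 ± 0.12. Without CCR2-positive replicate 2 the replication median was -0.012. That pool was also among the highest for mitosis genes. Whether the lists differed was not tested.

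Markers of cell types were counted too, and none had an adjusted p under 0.05. Of 13 measured markers of haematopoietic stem cells all were lower in CCR2-positive pools, by a median of -0.49. Their mean per pool was 7.78 to 8.08 in CCR2-negative and 7.12 to 7.54 in CCR2-positive pools. Kit, the receptor of stem cell factor, had 9.84 to 10.25 in CCR2-negative and 9.67 to 9.81 in CCR2-positive pools. Of the 14 measured erythroid markers all were higher, by a median of 0.47, with means of 7.76 to 8.22 and 8.36 to 8.83. The monocyte markers were higher in 10 of 12 cases, with means of 6.06 to 6.23 and 6.27 to 6.61, and the neutrophil markers in 13 of 15, with 5.61 to 6.26 and 5.87 to 6.81. Markers of B cells and of T or NK cells had means of 5.05 to 5.18 in CCR2-negative and 5.09 to 5.36 in CCR2-positive pools, and none of them had an unadjusted p under 0.05. Of 7 megakaryocyte markers 3 were lower and 4 higher, with a median of 0.02. At an unadjusted limma p under 0.05, 8 stem cell markers and 1 megakaryocyte marker were lower, beside 6.61% of all genes. At that p 9 erythroid, 4 monocyte and 3 neutrophil markers were higher, beside 5.63% of all genes. RMA values have no true 0, so that no marker could be called absent. Early erythroid cells divide. CCR2-positive replicate 2 was the highest pool for erythroid, neutrophil and monocyte means. In CCR2-negative replicate 2, where mitosis genes were high, these means were 8.19, 6.26 and 6.23. In CCR2-positive replicate 3, where mitosis genes were low, the means were 8.36, 5.87 and 6.27. The part of cells of these types in the mitosis values was not tested.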

How the data were processed

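The authors deposited a table of log2 values for 41345 probe sets on 6 arrays, made with RMA per the submitters' processing notes. This method corrects the background, scales arrays to each other and summarises probes. The medians of the deposited values still ran from 5.48 to 5.58 between arrays, and their SDs from 1.81 to 1.87. The sources used here name no version or settings. The log2 scale was checked from the values. RMA makes differences relative to the other genes of an array. Signal over background is unknown, and the number of arrays limits the precision. Nothing in the labels ties a CCR2-positive to a CCR2-negative pool, and p-values measure the spread between pools.

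Probe sets with 1 gene in the platform annotation (23521) were kept, and the one with the highest mean was taken per gene, which left 22180 genes. Groups were compared over all genes with limma 3.58.1 in R 4.3.3 (lmFit, eBayes), with Benjamini-Hochberg adjustment over all genes. The fit was run on simulated data with noise independent between genes, unlike the shared pool shifts above. Its recovery is not given here, so nothing is drawn from it on differences of the size reported. The 43 mitosis genes were given as a list, and all may be named. Values of every pool are given for Mki67, Top2a, Cdk1 and the 2 genes of each role with the smallest p, and for Nuf2 and Kif4, singled out after their values were seen. Of each further list up to 2 genes with the smallest p are named. Ska1, Cep97 and Kit are named in addition, not by this rule. The genes and lists were chosen with earlier results of these data known. Alternatives were a filter on the dimmest 25% of genes, 3 scalings, the replicate number as a block, trended and robust variances, the mean of probe sets, and each pool left out.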

Additional observations from a re-analysis of the deposited data

How the results depend on the processing

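Over 13 alternatives, 22 of the 42 mitosis genes kept the sign of their difference, Cep55, Cep68, Ndc80 and Kif18a among them, 9 changed it under another scaling and 11 only when a pool was left out. With a second quantile normalization the sign changed for Aurka (0.0038), Cenpa (0.0012), Cenpk (0.00055), Kif20b (0.017), Kif23 (0.0046), Tpx2 (0.037), Prc1 (0.020), with median centring Cenpe (-0.0076), Nuf2 (-0.015), and with cyclic loess Cenpa (0.019), Kif20b (0.0038), Tpx2 (0.031), Prc1 (0.0053). With each pool left out in turn the ranges crossed 0 for Ccna2 (-0.017 to 0.14), Cdk1 (-0.16 to 0.030), Aurka (-0.21 to 0.013), Bub1b (-0.39 to 0.056), Mad2l1 (-0.32 to 0.045), Ttk (-0.24 to 0.077), Cdc20 (-0.17 to 0.0056), Cenpa (-0.22 to 0.17), Cenpe (-0.097 to 0.092), Cenpk (-0.25 to 0.12), Nuf2 (-0.078 to 0.13), Kif20a (-0.044 to 0.17), Kif20b (-0.14 to 0.084), Tpx2 (-0.12 to 0.094), Hmmr (-0.13 to 0.18), Birc5 (-0.042 to 0.21), Top2a (-0.11 to 0.063), Prc1 (-0.23 to 0.11), Anln (-0.24 to 0.25). The number of mitosis genes lower at an unadjusted p under 0.05 ran from 2 to 6 as pools were left out, and of those higher from 0 to 2. The number of all genes past an adjusted p of 0.05 ran from 0 to 2, the latter without CCR2-positive replicate 1, when Gca and Mcpt8 passed, which are not mitosis genes. Under the other 7 alternatives it was 0, and the number of lower mitosis genes was 3 to 6.

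Over all genes the pools with the same replicate number hardly deviated together, with correlations of 0.035, 0.089 and 0.045. Those of unlike numbers ran from -0.10 to 0.068. The 42 mitosis genes were high in replicate 2 of both groups, with median positions of 0.20 (CCR2-negative) and 0.15 (CCR2-positive). Replicates 1 were at -0.071 and -0.041, and replicates 3 at 0.079 and -0.22. As the labels state no pairing, the number was not taken as one. With the number as a block, 6 mitosis genes were lower at an unadjusted p under 0.05 in place of 4, Bub3 and Kif2c in addition, and 0 genes passed the adjusted threshold (smallest adjusted p = 0.0618). Among the 42 genes the median half-width of the 95% interval was 0.328 on the log2 scale. For a typical gene a smaller difference thus left 0 inside the interval, which is not adjusted for the number of genes. The half-width is not the size of difference that 3 pools a group could detect after adjustment.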
